A study of Mus musculus with 24 samples.

Results

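Expression of 10 neuropeptide genes was followed across 24 libraries of mouse carotid artery. The genes, Npy, Gal, Vip, Sst, Penk, Adcyap1, Cartpt, Tac1, Calca and Nts, were taken by symbol from 55421 genes in the deposited tables. Libraries came from uninjured carotid arteries of ovariectomized C57BL/6 mice, 9 weeks old, and fell by title into vehicle, estradiol (E2), estetrol (E4) and tamoxifen groups of 6 animals each. The study's figure legend for its vehicle and E4 sequencing gives fewer animals per group and does not name those used. The estrogens were delivered by subcutaneous cholesterol pellets, and vehicle mice received cholesterol alone. The series text gives 3 weeks of treatment, the methods of the study give a shorter course, and the treatment field of the E4 libraries reads placebo although their titles read E4. Animals carry numbers that run from C2 to C20 and from C24 to C39 in separate ranges, whose meaning the labels do not state. Total counts ranged from 24647246 to 64221401 per library, and levels are given as CPM, the counts scaled to a common library size by TMM.

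Neuropeptides are cut from larger precursor proteins, stored in large dense-core vesicles and released by nerve terminals beside the classical transmitters. In arteries, the peptide of Npy is released with noradrenaline from sympathetic nerves and constricts smooth muscle, whereas the products of Vip, Calca and Tac1 come mainly from parasympathetic or sensory nerves and widen the vessel. Their mRNA lies mostly in the neuron's cell body, in a ganglion near the vessel or in its wall, and less in the terminals. In such bulk samples, fewer cells of a type and less RNA per cell cannot be told apart.

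None of the 10 neuropeptide genes passed the threshold in any comparison, and the spread between animals of a group was wide for most of them. With edgeR's quasi-likelihood test on all 24 libraries (Benjamini-Hochberg adjusted p under 0.05 with a log2 fold change beyond 1 in either direction), 0 of 9 tested members were called in each of the 4 comparisons. Among all 25033 genes tested, the same rule called 1.27% for E2 against vehicle, 2.51% for E4 against vehicle, 0.308% for tamoxifen against vehicle and 2.47% for E4 against E2. An adjusted p under 0.05 alone was reached by 0 members in each comparison, and by 4.16%, 22.0%, 2.21% and 12.5% of all genes in the same order. At an unadjusted p under 0.05, Penk passed for E2 against vehicle and Cartpt for tamoxifen against vehicle, 1 of 9 members in each and 0 in the other two comparisons. That threshold was passed by 16%, 36.3%, 21.0% and 30.2% of all genes in the same order. DESeq2 called 0 members as well. The comparisons with vehicle share the same 6 vehicle libraries. Sst was the member removed by the filter on low counts, with 0 to 9 counts per library.

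Per kilobase of annotated exon, the median level over 24 libraries fell in the order Npy (160 CPM per kb), Gal (41.4), Penk (9.53), Adcyap1 (0.954), Vip (0.862), Nts (0.593), Calca (0.412), Cartpt (0.186), Tac1 (0.103) and Sst (0.0169). In each group, Npy exceeded Gal in 6 of 6 libraries, and Penk exceeded Adcyap1 in 6 of 6 with no overlap. Gal exceeded Penk in all 6 libraries of the E2 and E4 groups and in 5 of 6 of the vehicle and tamoxifen groups. From Adcyap1 down, each neighbouring pair in the order overlapped in every group. Adcyap1 and Vip, for instance, were each the higher in 3 of 6 vehicle libraries, while Vip was the higher in all 6 tamoxifen libraries.

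Npy, whose peptide is a main cotransmitter of sympathetic vasoconstrictor nerves, was the most abundant member. In vehicle libraries Npy ranged from 0.725 to 95.5 CPM with a median of 66.5, and in E2 libraries from 35.8 to 103 with a median of 76.2. The E4 libraries ranged from 83.6 to 125 CPM with a median of 105, and the tamoxifen libraries from 9.10 to 130 with a median of 101. The SD of log2 Npy was 0.224 in E4 and, without C35, 0.223 in tamoxifen, and the E4 range overlapped that of every other group. The lowest values belonged to a single vehicle animal, C5, and a single tamoxifen animal, C35, with 33 and 392 Npy counts. The log2 fold change against vehicle was 0.24 ± 0.57 (SE, 95% interval -0.93 to 1.42) for E2, 0.79 ± 0.57 (-0.40 to 1.97) for E4 and 0.56 ± 0.57 (-0.62 to 1.74) for tamoxifen, with n = 6 in each group and edgeR adjusted p of 0.928, 0.329 and 0.610.

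Gal encodes galanin, a peptide made by sympathetic and other autonomic neurons, often after nerve injury. It ranged from 0.198 to 30.5 CPM in vehicle libraries (median 24.1), from 16.8 to 42.7 in E2 (34.3), from 32.4 to 54.4 in E4 (36.2) and from 0.557 to 45.7 in tamoxifen (35.3). All 6 E4 libraries lay above all 6 vehicle libraries, which made Gal the member whose groups did not overlap in that comparison, where 9.37% of all tested genes did the same. In E2 against vehicle, tamoxifen against vehicle and E4 against E2, 0 members had separate groups, beside 2.83%, 2.58% and 6.17% of all genes. The log2 fold change of Gal for E4 against vehicle was 0.94 ± 0.63 (SE, 95% interval -0.37 to 2.24, edgeR adjusted p = 0.290). With vehicle C5 and tamoxifen C35 left out, it was 0.69 and the edgeR adjusted p was 0.0312, a level reached by 22.2% of genes in that fit, and it was below the fold threshold. The values for E2 and tamoxifen against vehicle were 0.58 (95% interval -0.72 to 1.87) and 0.57 (-0.73 to 1.87).

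Adcyap1 encodes PACAP, a relative of the Vip peptide that acts as a cotransmitter in preganglionic and some ganglionic neurons. Its 6 vehicle libraries ranged from 0.110 to 3.96 CPM (median 3.25), E2 from 1.73 to 4.85 (3.71), E4 from 2.87 to 4.69 (4.31) and tamoxifen from 0.278 to 5.03 (3.60). The groups overlapped in every pair. The log2 fold change was 0.31 for E2, 0.57 for E4 and 0.26 for tamoxifen against vehicle, with edgeR adjusted p between 0.416 and 0.869.

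**Figure D1:**
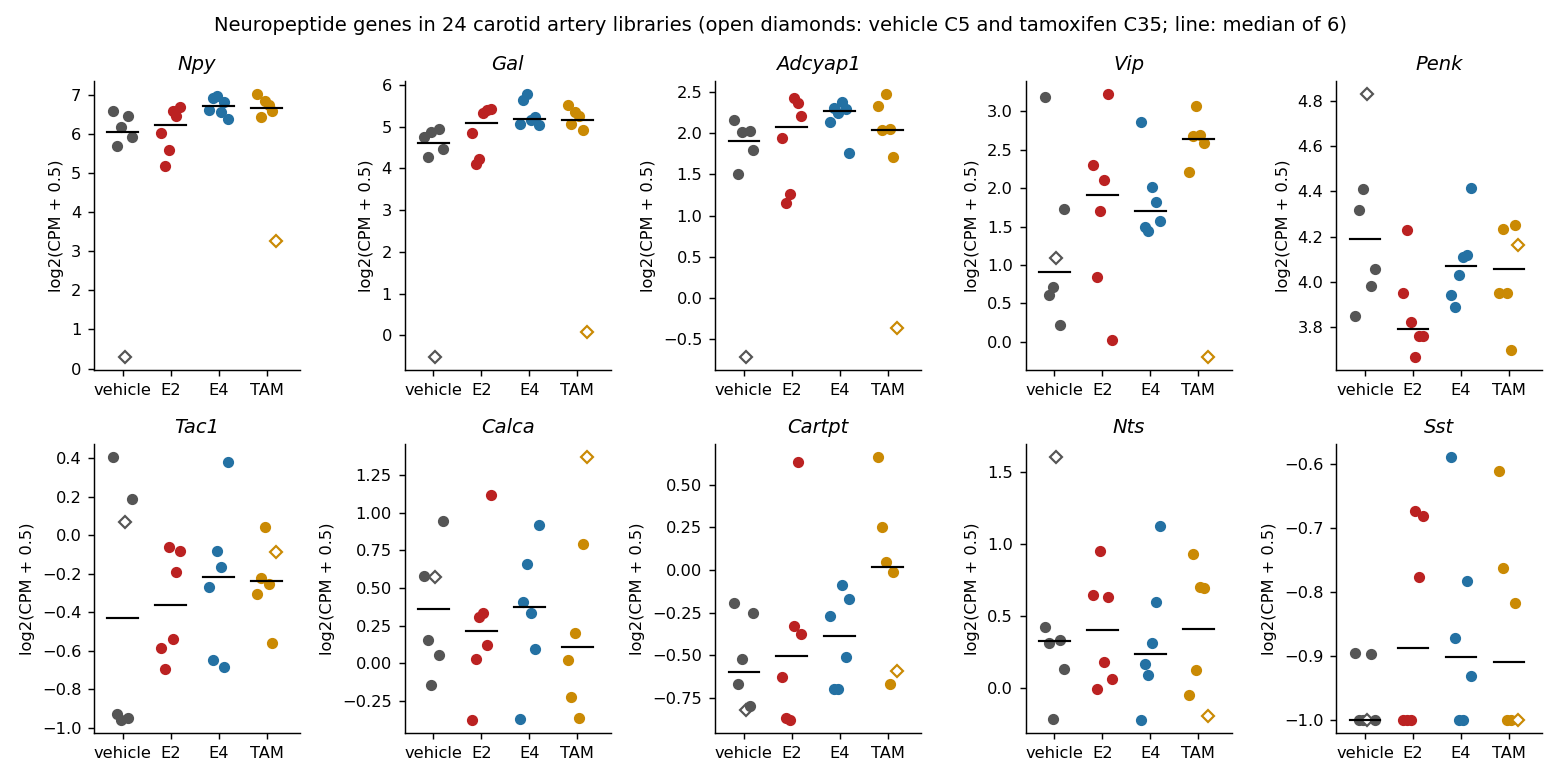
Level of each neuropeptide gene in each library, as log2(CPM + 0.5) on axes scaled gene by gene, with points for the 6 libraries of the vehicle, E2, E4 and tamoxifen (TAM) groups and a line at their median. Npy, Gal and Adcyap1 are low in vehicle C5 and tamoxifen C35 (open diamonds), where Penk is not.

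Npy, Gal and Adcyap1 followed the markers of noradrenergic neurons from animal to animal. A marker mean was formed from 13 genes, among them Th and Dbh, the enzymes that begin and complete noradrenaline synthesis, as the mean of log2(CPM + 0.5). It was 2.14 in vehicle C5 and 3.79 in tamoxifen C35, and lay between 6.28 and 8.11 in the other 22 libraries. Since those libraries stand apart, correlations were computed within the 22 others for the 5 members with a mean of at least 1 CPM. Pearson's r was 0.97 for Npy (Spearman's rho 0.93), 0.90 for Gal (0.82) and 0.89 for Adcyap1 (0.76), with two-sided permutation p of 1e-05 for each r, the smallest that 100000 resamples can give, and adjusted p of 1.67e-05 over 5 members. For Vip, r was 0.34 and rho 0.24 with adjusted permutation p of 0.15 and 0.274. For Penk, r was -0.28 and rho -0.26 with adjusted permutation p of 0.213 and 0.274. Within the low-numbered animals without C5 (n = 12), r was 0.99 for Npy, 0.95 for Gal and 0.96 for Adcyap1, each with an adjusted permutation p of 5e-05. Within the high-numbered animals without C35 (n = 10), r was 0.85, 0.64 and 0.61 with adjusted permutation p of 0.0144, 0.093 and 0.093, and rho was 0.72, 0.50 and 0.49 with adjusted permutation p of 0.119, 0.259 and 0.259. There only r of Npy passed. Both measures come from the same library. With the marker mean as a term in the edgeR fit, the E4-against-vehicle log2 values of Npy, Gal and Adcyap1 were -0.070, -0.20 and -0.31 in place of 0.79, 0.94 and 0.57. That term was fitted with C5 and C35 included, and was not fitted without them.

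**Figure D2:**
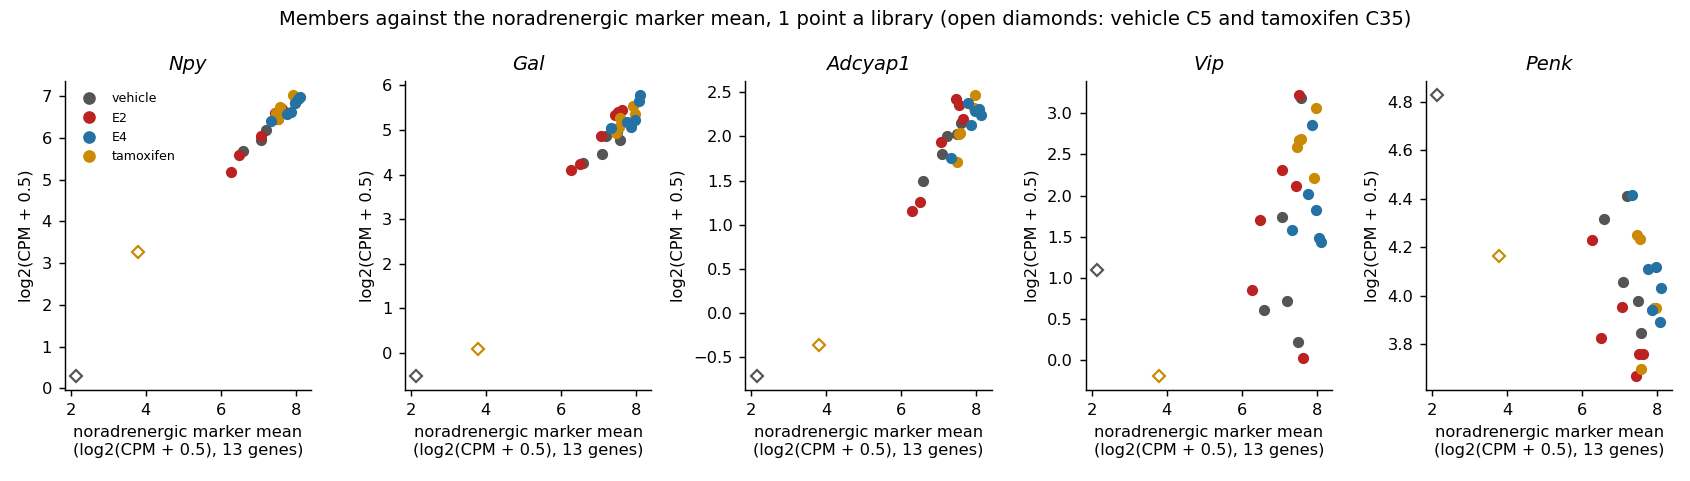
Level of 5 members, as log2(CPM + 0.5), against the mean of 13 noradrenergic markers on the same scale, 1 point a library, coloured by group. Npy, Gal and Adcyap1 lie along a line through the 22 libraries between 6.28 and 8.11, whereas Vip and Penk scatter.

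The 3 genes most like Npy in pattern over 24 libraries, by the root mean square difference of gene-centred log2(CPM + 0.5) among 19531 genes of at least 1 CPM, were Nefl (0.17), Cntnap2 (0.18) and Snap91 (0.19). For Gal they were Nrsn1 (0.23), Hcrtr1 (0.24) and Rab15 (0.24). Gal was the 208th most like Npy, at 0.42, and Adcyap1 the 658th, at 0.73. Vip had no close neighbour, since its nearest genes, Ccne1, Gm48992 and Diras2, differed by 0.77, 0.77 and 0.79. The 2 low libraries weigh heavily in the distances of Npy and Gal.

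Per kilobase, Npy stood at 0.689 to 0.958 times Th in the 22 libraries, with a median of 0.800, although Npy itself varied from 35.8 to 130 CPM there. In vehicle C5 and tamoxifen C35, where Th was 1.34 and 17.6 CPM, the ratio was 2.26 and 2.16. The direction for vehicle C5 depended on the denominator, since log2 Npy minus the 13-marker mean was -1.85 there, the lowest of 24 libraries, and -0.53 in tamoxifen C35, the highest. The ratio of Npy to Gal per kilobase was 2.90 to 4.99 in the 22 libraries, 5.10 in vehicle C5 and 22.7 in tamoxifen C35. Npy was thus less reduced than Gal in tamoxifen C35, where Gal had 24 counts.

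Gal also differed between groups when it was set against the noradrenergic markers of the same library. The difference between log2 Gal and the marker mean ran from -2.26 to -2.11 in the 6 E2 libraries, from -2.82 to -2.32 in vehicle, from -2.81 to -2.30 in E4 and from -3.72 to -2.32 in tamoxifen. All 6 E2 libraries therefore lay above all 6 vehicle and all 6 E4 libraries. The share of all genes with separate groups on this scale is not given here. In CPM it was 2.83% for E2 against vehicle and 6.17% for E4 against E2. E2 exceeded vehicle by 0.37 (exact permutation test, two-sided, p = 0.0022, the smallest that 6 against 6 allows, 0.013 adjusted over 12 tests), and E4 was lower than E2 by a difference of -0.36 (exact p = 0.0022, adjusted 0.013). Gal had 9 counts in vehicle C5, so its ratio there, -2.66, depends on the added 0.5 CPM, and without C5 and C35 E2 exceeded vehicle by 0.35 (exact adjusted p = 0.0173). Set against Th alone and with nothing added, Gal per kilobase was 0.243 to 0.274 in E2, 0.187 to 0.224 in E4, 0.181 to 0.225 in the other 5 vehicle libraries and 0.443 in vehicle C5, above every E2 library. On the scale of the marker mean, E4 and vehicle differed by 0.015 (exact p = 0.898). This ratio test was added after the data were seen. In the edgeR fit with the marker mean as a term, the log2 difference of Gal was 0.38 for E2 against vehicle (adjusted p = 0.0782) and -0.58 for E4 against E2 (adjusted p = 0.00728), where 15.8% of genes passed an adjusted p under 0.05. The slope of that term rests on all libraries, C5 and C35 included, and tamoxifen C35 had the lowest Gal ratio, -3.72. The term was not fitted without them. The E4-against-E2 value without the term was 0.36, of the other sign. With the 3 libraries that hold parathyroid hormone (Pth) counts left out, the ratio differences were 0.32 and -0.24, with exact adjusted p of 0.0519 and 0.0571. The unadjusted exact p of 0.0043 and 0.0095 were the smallest that 6 against 5 and 4 against 6 libraries allow, and all 6 E2 libraries still lay above the others. Those libraries, vehicle C2, E4 C16 and E4 C38, had Gal ratios of -2.82, -2.81 and -2.75, the lowest of the 22.

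Adcyap1 gave -0.48 for E4 against E2 on the ratio scale (exact p = 0.0043, adjusted 0.0173) and 5 of 6 E4 libraries lay below all E2 libraries. For E4 against vehicle the ratio difference was -0.79 (exact adjusted p = 0.0195), and -0.38 (exact adjusted p = 0.0312) without vehicle C5. With the 3 Pth libraries left out, these differences were -0.46 and -0.87, with exact adjusted p of 0.0762 and 0.0952, and the -0.87 includes vehicle C5. Tamoxifen against vehicle was -0.46 (exact adjusted p = 0.662) with all libraries. Without C5 and C35 it was -0.29 (exact adjusted p = 0.0238), and all 5 tamoxifen libraries lay below the 5 vehicle libraries. In the edgeR fit with the marker mean as a term the difference of Adcyap1 for E4 against E2 was -0.41 (adjusted p = 0.0122), and for E4 against vehicle it was -0.31 (adjusted p = 0.0499), where 19.1% of genes passed an adjusted p under 0.05. C5 and C35 were included in that fit. Npy relative to the markers was lower in E4 than in E2 by a difference of -0.16 (exact p = 0.0303, adjusted 0.0727). In vehicle C5, Adcyap1 rested on 5 counts, so its ratio there, -2.86, depends on the added 0.5 CPM. The ratio also takes Adcyap1 to change in step with the marker mean. In vehicle it was -5.09 in C3 (marker mean 6.59) and -5.42 in C2 (7.58). In E2 it was -5.12 in C8 (6.28) and -5.44 in C29 (7.63), but -5.03 in C26 (7.45). The median marker mean was 7.92 in E4, 7.26 in E2 and 7.15 in vehicle. The part of the marker level in the ratio differences was not tested.

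**Figure D3:**
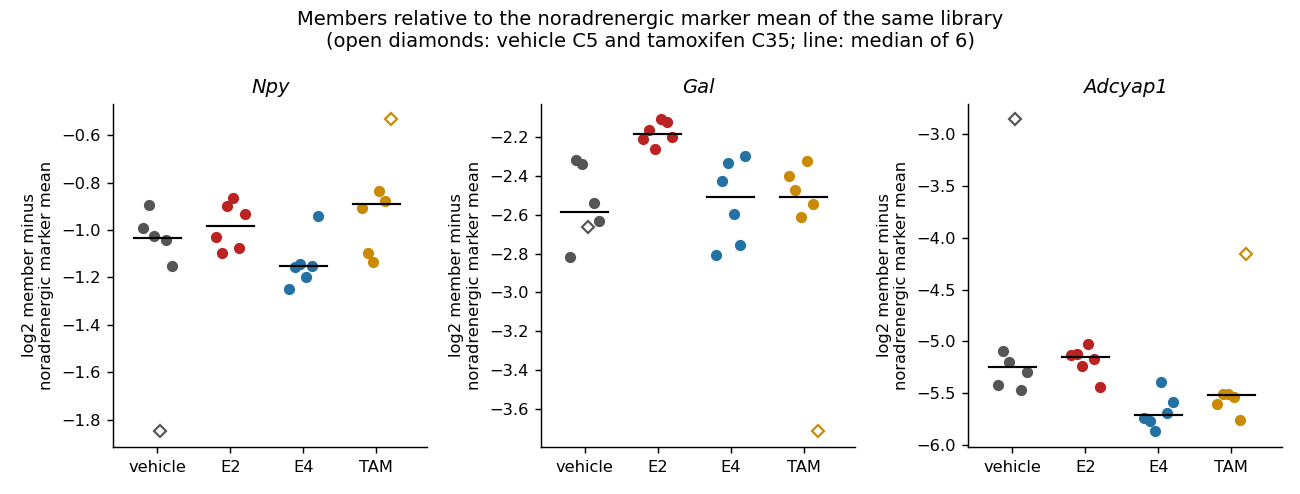
Difference between the log2 level of Npy, Gal or Adcyap1 and the noradrenergic marker mean of the same library, in log2 units, for the 6 libraries of each group with a line at the median. The 6 E2 points of Gal, from -2.26 to -2.11, lie above all vehicle and E4 points.

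Promoter sequence was read for the genes that moved with the noradrenergic markers, Npy, Gal and Adcyap1, and for Vip, whose relation to them did not pass in the 22 libraries. RefSeq promoters on GRCm38.p6 were matched for 9 of 10 members, with 10 starts in all. The 120 bases before the start are shown 5′ to 3′ on the gene's strand, and capitals mark the cyclic AMP response element core TGACG and the single estrogen response element arm GGTCA on either strand. Npy lies on the plus strand at chr6:49822590-49822709, Gal on the minus strand at chr19:3414545-3414664, Adcyap1 on the plus strand at chr17:93198897-93199016 and Vip on the plus strand at chr10:5639098-5639217.
Npy: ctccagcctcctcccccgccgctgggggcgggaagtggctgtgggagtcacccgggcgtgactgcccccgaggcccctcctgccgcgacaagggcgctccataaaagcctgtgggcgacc
Gal: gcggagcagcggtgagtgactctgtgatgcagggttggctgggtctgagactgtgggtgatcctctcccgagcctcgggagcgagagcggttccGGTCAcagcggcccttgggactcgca
Adcyap1: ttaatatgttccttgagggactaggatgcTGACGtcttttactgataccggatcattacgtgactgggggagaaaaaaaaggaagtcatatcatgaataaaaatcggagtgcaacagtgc
Vip: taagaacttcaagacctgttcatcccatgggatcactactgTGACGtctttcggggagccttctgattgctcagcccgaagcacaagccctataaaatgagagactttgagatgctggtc

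Within 250 bases before the start, the core TGACG was found on either strand in 7 of the 9 matched genes, those other than Npy and Gal, and in 17.8% of all 32851 promoters. Adcyap1 held it 91 bases and Vip 79 bases before the start. The full element TGACGTCA, which contains the core on both strands, was found in Sst, 48 bases before the start, and in Cartpt, 112 bases before it, against 1.55% of all promoters. Gal held GGTCA 26 bases before its start, Cartpt 74 and Calca 130 bases before theirs, an arm that 35.2% of promoters hold. The full estrogen response element, GGTCANNNTGACC, was found in 0 member promoters and in 0.0639% of all. The TATA box letters TATAAA were present in Vip and in the inner start of Adcyap1, and in 12.4% of all promoters. A match describes letters in this window and no binding.

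Vip encodes vasoactive intestinal peptide, a vasodilator of cholinergic autonomic nerves. Its levels spread widely within groups. Vehicle libraries ranged from 0.668 to 8.63 CPM (median 1.39), E2 from 0.518 to 8.83 (3.28), E4 from 2.20 to 6.75 (2.76) and tamoxifen from 0.371 to 7.87 (5.71). The highest library exceeded the lowest by 12.9 times in vehicle, 17.1 times in E2, 3.06 times in E4 and 21.2 times in tamoxifen. In tamoxifen, 5 of 6 libraries lay between 4.13 and 7.87 CPM, within 1.90 times of each other, and C35 was at 0.371. Tamoxifen against vehicle gave a log2 fold change of 0.90 ± 0.63 (SE, 95% interval -0.40 to 2.20, edgeR adjusted p = 0.433). The values were 0.45 for E2 and 0.35 for E4 against vehicle, and -0.10 for E4 against E2. Without vehicle C2, the comparisons with vehicle gave 1.32 for E2, 1.22 for E4 and 1.77 for tamoxifen (edgeR adjusted p of 0.271, 0.139 and 0.0971), and without E4 C16, E4 against vehicle gave 0.030. With the 3 Pth libraries left out, tamoxifen against vehicle was 1.77 and the edgeR adjusted p 0.102. Of 4 cholinergic markers, 2 had a mean of at least 1 CPM, and the sum of the list ranged from 1.63 to 10.8 CPM. The defining genes were the sparse ones, with Chat between 0 and 0.21 CPM and Slc18a3, the vesicular acetylcholine transporter, between 0 and 0.80 CPM.

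Penk, the precursor of the enkephalins and a product of both neurons and connective tissue cells, had the smallest SD of log2 level among the 9 tested members, 0.269 over 24 libraries. It ranged from 13.9 to 27.9 CPM in vehicle (median 17.8), from 12.2 to 18.2 in E2 (13.4), from 14.3 to 20.8 in E4 (16.3) and from 12.5 to 18.5 in tamoxifen (16.2). Its highest value, 27.9 CPM, was in vehicle C5, the library lowest in noradrenergic markers. E2 against vehicle gave a log2 fold change of -0.41 ± 0.14 (SE, 95% interval -0.71 to -0.11, unadjusted p = 0.00897, edgeR adjusted p = 0.120, DESeq2 adjusted p = 0.0841), and the groups overlapped. Without vehicle C5 and tamoxifen C35 it was -0.27 (edgeR adjusted p = 0.216). For E4 and tamoxifen against vehicle, -0.19 and -0.23 had intervals of -0.49 to 0.11 and -0.53 to 0.07, so a change of 1 log2 unit lay outside them. Of the exon bases of Penk, 233 overlap A830012C17Rik on the opposite strand, and the strand setting of the counting was not given in the sources used here.

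Tac1 and Calca, the precursors of substance P and of calcitonin and calcitonin gene-related peptide, are the peptide genes of many sensory neurons. Tac1 ranged from 0.015 to 0.825 CPM over all libraries, and vehicle C3, C4 and C24 had 1 count each while vehicle C2 had 44. Calca ranged from 0.271 to 2.09 CPM, with its highest value in tamoxifen C35. Their log2 fold changes lay between -0.23 and 0.38 in the 4 comparisons, with edgeR adjusted p of at least 0.721. The intervals reached from -1.58 to 1.74 for Tac1 and from -1.09 to 1.11 for Calca. For Tac1, each interval held a change of 1 log2 unit in at least 1 direction. For Calca, such a change lay outside the intervals for E4 (-0.938 to 0.942) and tamoxifen (-0.918 to 0.999) against vehicle. In the other comparisons the Calca interval held it in 1 direction. Calcb, the sister gene of Calca in sensory neurons, had more than 3 counts in 5 of 24 libraries.

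Cartpt encodes the CART peptides of autonomic and enteroendocrine cells. Its 6 tamoxifen libraries ranged from 0.128 to 1.08 CPM (median 0.512), against 0.066 to 0.375 in vehicle (0.162), 0.044 to 1.05 in E2 (0.209) and 0.115 to 0.439 in E4 (0.266). The groups overlapped, and counts were between 2 and 63. Tamoxifen against vehicle gave the largest fold change of any member, 1.38 ± 0.63 on the log2 scale (SE, 95% interval 0.09 to 2.67, unadjusted p = 0.0376, edgeR adjusted p = 0.209). Within the low-numbered animals it was 1.95 (edgeR adjusted p = 0.0990) and within the high-numbered animals 0.36 (edgeR adjusted p = 0.939).

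Nts, the precursor of neurotensin, ranged from 0.357 to 2.55 CPM, and its highest value was in vehicle C5. Its log2 fold changes lay between -0.23 and -0.08, with edgeR adjusted p of at least 0.735. Without vehicle C5, the values against vehicle turned to 0.41 for E2, 0.34 for E4 and 0.36 for tamoxifen. Sst, the precursor of somatostatin, had 3 counts or fewer in 18 of 24 libraries, among them all 6 vehicle libraries, and 3 counts were taken as the floor of detection.

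**Figure D4:**
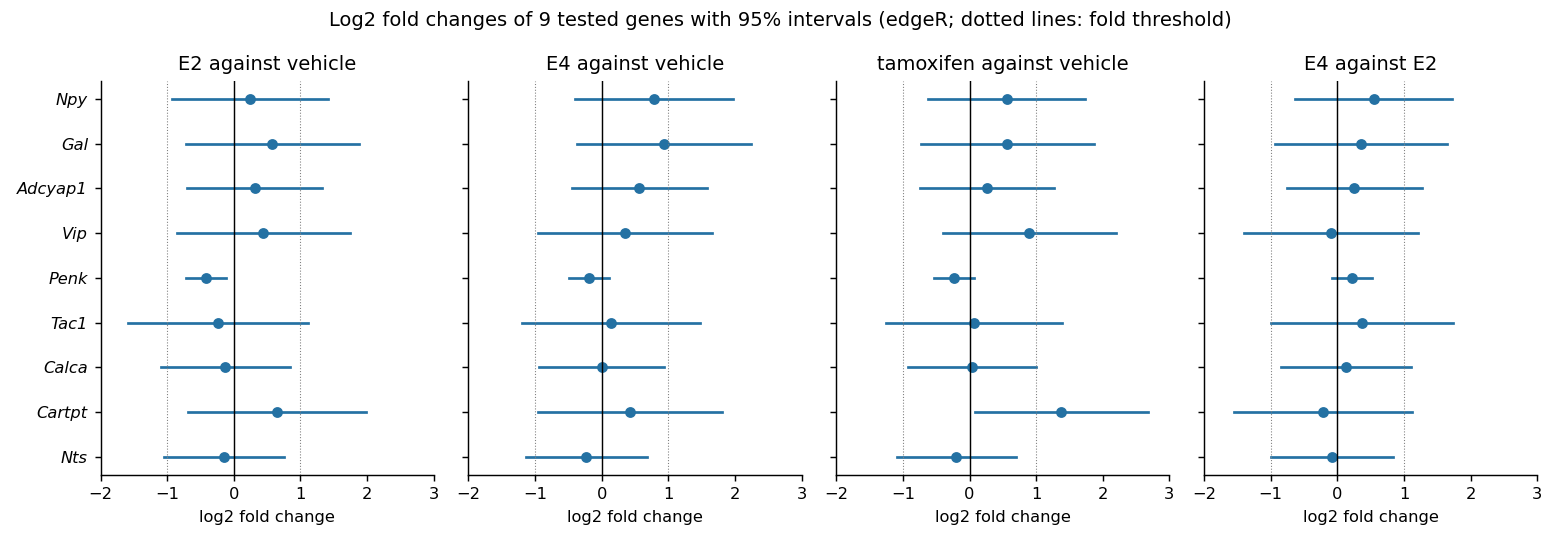
Log2 fold change of each of the 9 tested members (points) with its 95% interval (bars) in 4 comparisons from 1 edgeR fit of 24 libraries; dotted lines mark the fold threshold of 1 in either direction. Intervals exclude 0 for Penk in E2 against vehicle and for Cartpt in tamoxifen against vehicle, and 0 members passed the adjusted threshold.

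Receptors for the peptides were measured as well. Of 29 receptor and accessory genes, 22 were tested. In E4 against vehicle, 4 of the 22 reached an adjusted p under 0.05, 2 in each direction, where 22.0% of all genes did. Vipr1 was called lower in E4 than in vehicle, at 0.960 ± 0.264 against 2.04 ± 0.73 CPM (SD, n = 6), a log2 fold change of -1.07 with an edgeR adjusted p of 0.00383. With 1 library left out at a time it stayed called in 19 of 24 fits, and in the others, those without E4 C36 or C38 or vehicle C3, C4 or C5, it fell below the fold threshold, with -0.92 without vehicle C3. Vipr2, the other receptor shared by the Vip and PACAP peptides, ranged from 3.65 to 6.67 CPM in E4 (median 5.61), below all vehicle libraries, whose lowest was 7.45 and median 9.76 CPM. Its edgeR adjusted p was 0.00535, and its fold change fell just short of the threshold. Galr2, a galanin receptor, and Sort1, which binds neurotensin, were higher by 0.70 and 0.32 on the log2 scale in E4 against vehicle (edgeR adjusted p of 0.0366 and 0.0333), below the fold threshold. In E4 against E2, Sort1 was higher by 0.40 (edgeR adjusted p = 0.0184), and Sstr3, with a mean of 0.154 CPM and outside the naming rule, was called lower at -1.60. It stayed called in 16 of 24 fits with 1 library left out, and in the others the value was -1.63 to -1.35 (edgeR adjusted p of up to 0.0998). It was not called without the 3 Pth libraries (-1.32, edgeR adjusted p = 0.107). In E2 and in tamoxifen against vehicle, 0 of 22 receptor genes reached an adjusted p under 0.05 in edgeR. The median log2 fold change of the tested receptors was 0.070 for E2, 0.28 for E4 and 0.30 for tamoxifen against vehicle and 0.32 for E4 against E2, beside medians over all genes between -0.014 and 0.0060. The noradrenergic markers had medians of 0.20, 0.95, 0.48 and 0.71 in the same order. Npy1r, the vascular receptor for the Npy peptide, ranged from 42.8 to 143 CPM, and Adcyap1r1, the PACAP receptor, from 17.8 to 222 CPM with its lowest value in vehicle C5.

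Among genes that process and store the peptides, calls were made in the comparisons with E4. Of 13 processing and dense-core vesicle genes, all tested, 3 were called higher in E4 than in vehicle and 0 lower, where 2.51% of all genes were called. The median log2 fold change of the list was 0.52 there, beside 0.95 for the noradrenergic and 0.66 for the general neuron markers. Its mean log2 level was 2.43 in vehicle C5 and 3.72 in tamoxifen C35, beside group medians of 6.01 and 6.31, and all 3 genes stayed called with both libraries left out. Pcsk1n, an inhibitor of prohormone convertase, was at 57.7 ± 23.0 against 14.1 ± 9.64 CPM (SD, n = 6, log2 fold change 2.03, edgeR adjusted p = 0.0292), and Vgf, a precursor of granule peptides, at 22.8 ± 6.01 against 6.56 ± 4.68 CPM (1.79, edgeR adjusted p = 0.0448). The 6 E4 libraries of each lay above the 6 vehicle libraries. Chga, a granule protein abundant in endocrine cells, was at 471 ± 852 against 58.6 ± 33.7 CPM (3.01, edgeR adjusted p = 0.0117) and was also called in E4 against E2 (2.95, edgeR adjusted p = 0.0199). Without E4 C38, the log2 fold changes of Chga were 1.07 and 1.01, with edgeR adjusted p of 0.156 and 0.215. Without E2 C8 or C9, its call against E2 was lost at fold changes of 2.81 and 2.82, close to the full value (edgeR adjusted p of 0.0564 and 0.0504). Pcsk1n stayed called in 22 of 24 fits with 1 library left out, and was lost without E4 C20 or vehicle C3, at log2 fold changes of 1.81 and 1.92 and an edgeR adjusted p of up to 0.0706. Vgf stayed called in 10 of 24, with log2 fold changes of 1.54 to 2.11 and an edgeR adjusted p of up to 0.102. Without the 3 Pth libraries, 0 of the 3 genes were called against vehicle, but Pcsk1n and Vgf kept log2 fold changes of 2.13 and 1.79 (edgeR adjusted p of 0.0596 and 0.106), whereas that of Chga was 1.17 (0.168). The SD of Chga exceeded its mean in E4, the group that holds 2 of the 3 libraries with Pth counts, at 107 and 2914 CPM. In E2 and in tamoxifen against vehicle, 0 of 13 passed an adjusted p under 0.05 in edgeR. Of 7 peptidases, 0 were called, and in E4 against vehicle Ece1 and Thop1 were higher by 0.39 and 0.51 and Mme, or neprilysin, was lower at -0.51 on the log2 scale (edgeR adjusted p of 0.0370, 0.0157 and 0.0444), at a threshold that 22.0% of all genes passed. Of 29 other neuropeptide precursors, 7 were tested and 0 called, with Npff lower in E4 than in vehicle at -0.61 (edgeR adjusted p = 0.00345).

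The tissue label was checked against its markers. Smooth muscle genes were abundant in all libraries, with Myh11 at 612 to 2599 CPM and Acta2 at 898 to 3236, and the endothelial genes Pecam1 and Cdh5 lay at 189 to 517 and 50.5 to 128. Dbh ranged from 0.483 to 1271 CPM and Th from 1.34 to 731, so the libraries also held RNA of noradrenergic neurons in amounts that differed between animals. Of 13 noradrenergic markers, 1 was called, Gata3 in E4 against vehicle, with a median log2 fold change of 0.95 over the list beside -0.01 over all genes. Their summed level ranged from 96.4 to 6359 CPM in vehicle, 2307 to 6219 in E2, 5015 to 8677 in E4 and 311 to 8188 in tamoxifen. Called genes were absent from the general neuron (10 genes), cholinergic (4), sensory (9), Schwann cell (8), carotid body (6), smooth muscle (6), fibroblast (5) and parathyroid (3) lists, the last having 0 tested genes. At an adjusted p under 0.05 alone, below the fold threshold, 3 of 5 fibroblast genes were lower in E4 against vehicle (list median -0.58) and 3 of 5 in E4 against E2 (-0.53), and Col1a1 was higher in tamoxifen than in vehicle. Of 8 Schwann cell genes, 3 were higher in E4 against E2 (list median 0.60) and 1, Sox10, in E4 against vehicle at that threshold, which 22.0% of all genes passed for E4 against vehicle and 12.5% for E4 against E2. Vwf of 6 endothelial genes was called higher in E2 and in E4 against vehicle, Tg of 8 thyroid genes higher in E4 against E2, and Lep of 4 adipocyte genes lower in E4 and tamoxifen against vehicle and in E4 against E2. B cell genes were called lower in E4 (5 of 5) and tamoxifen (2 of 5) against vehicle, and T cell genes (6 of 6) and macrophage genes (3 of 5) lower in E4 against E2. The T cell list had a mean log2 level of 5.27 in E2 C9 beside a median of 0.64 over the E2 libraries, and 0 of its 6 genes were called without that library (edgeR adjusted p of 0.189 to 0.528). All 5 macrophage genes were also higher in E2 than in vehicle at an edgeR adjusted p under 0.05, by 0.60 to 0.90 on the log2 scale, below the fold threshold. Tg, at a log2 fold change of 2.96, stayed called in 19 of 24 fits with 1 library left out, was 1.35 without E4 C38 (edgeR adjusted p = 0.244), and was also lost without E2 C6, C8, C9 or C26, at 2.78 to 3.04. Gata3, at 1.22, was lost without E4 C38 or vehicle C3, at 1.10 and 1.15 (edgeR adjusted p of 0.0588 and 0.0672), and Adgre1 of the macrophage list without E2 C6, at -0.99. With 1 library left out at a time, the B cell calls stayed in 23 or 24 of 24 fits for E4, and in 16 (Ms4a1) and 5 (Cd79b) of 24 for tamoxifen, where the log2 fold changes stayed between -1.99 and -1.43 and between -1.76 and -1.28. Pth had counts in vehicle C2, E4 C16 and E4 C38 and 0 in the other 21 libraries.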

How the data were processed

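Poly(A) RNA of 24 carotid arteries was sequenced from stranded libraries. Per the labels, the submitters' processing notes name bcl2fastq 2.17, Trim Galore, Bowtie2 and featureCounts with mm10/GRCm38, and the authors deposited a table of estimated counts for each library, not normalized. The aligner's parameters, the strand setting and the test were not given in the sources used here. Values with decimals, 8.87 to 9.80% of those in a table, were rounded to whole numbers. Names and coordinates come from GENCODE M21 (55240 of 55421 identifiers matched), and promoters from RefSeq.

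Counts were tested in edgeR 4.0.16 (R 4.3.3) with TMM scaling, filterByExpr, 1 quasi-likelihood fit of 24 libraries without covariates and Benjamini-Hochberg adjustment over 25033 genes. Standard errors were derived from F. Levels used 0.5 CPM as pseudocount on the log2 scale. On simulated counts for E2 against vehicle, 96.5% of 200 genes changed 4-fold were called, with 4 unchanged genes. DESeq2 1.42.0, other scaling, filters, subsets of libraries and added terms were alternatives. Exact and permutation tests used scipy 1.17.1 in Python 3.11.15. Groups came from the titles, 6 animals each, and 0 pairs of libraries were identical. Intervals cover counting and animal spread only, and 3 counts were taken as the floor.

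The 10 members and the gene lists were chosen with earlier results of these data known. All members are named. From each related or marker list, up to 3 called genes per comparison with the largest absolute fold change and a mean of at least 1 CPM are named, along with defining markers and, for members with an SD of log2 CPM over 1, the 3 genes of most similar pattern. Receptors and other genes at an adjusted p under 0.05 alone were named after their values were seen. The ratio to the noradrenergic mean and the fits without the libraries holding Pth counts, and the single-library omissions for list genes, were added after the data were seen.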

Additional observations from a re-analysis of the deposited data

Results flagged for a closer look

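Within each group of 6, the gap of the highest or lowest library to its neighbour was set against the group's range for 9 members, in CPM, and for the noradrenergic marker mean, which is on the log2 scale. A gap of over 0.625 of the range marked 9 of 40 groups, where chance marks about 1 in 20 if values are normally spread. CPM need not be so spread, and the groups share libraries. The count is therefore no test of an excess over chance.

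The noradrenergic marker mean was 2.14 in vehicle C5, with the 5 others at 6.59 to 7.58, and 3.79 in tamoxifen C35, with the others at 7.47 to 7.97. Npy was 9.10 CPM and Gal 0.557 CPM in tamoxifen C35, with the others at 86.3 to 130 and 30.0 to 45.7. Npy and Gal of vehicle C5, at 0.725 and 0.198 CPM, were lower still but did not pass in CPM. On the log2 scale they did, with gaps of 0.858 and 0.875 of the range, and so did Adcyap1 in both libraries and Vip in tamoxifen C35, at 0.733 to 0.771. Vip in vehicle C2 and E4 C16 and Calca in E2 C29 passed in CPM and not on the log2 scale. Nts was 2.55 CPM in vehicle C5, with the others at 0.362 to 0.844.

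Vip was 8.63 CPM in vehicle C2, with the others at 0.668 to 2.82, and 6.75 CPM in E4 C16, with the others at 2.20 to 3.56. Both libraries held Pth, at 16.3 and 107 CPM, whereas E4 C38 held the most, 2914 CPM, and had Vip at 3.04 CPM. Their part in the Vip values was not tested, beyond the fits without all 3 libraries.

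Cartpt was 1.05 CPM in E2 C27, with the others at 0.0435 to 0.295. The same library had the highest Vip of the series, 8.83 CPM. Calca was 1.68 CPM in E2 C29, with the others at 0.271 to 0.759.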

How the results depend on the processing

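The count of members called was 0 in each comparison under each alternative run, with all 24 single-library omissions included. Without the fold threshold it was also 0 in the main fit and in the single-library omissions, where the smallest edgeR adjusted p was 0.060. Under the other alternatives, Gal and Adcyap1 passed an adjusted p under 0.05. Of 421 member fold changes under the other alternatives, 369 kept sign and side, 51 changed sign and 1 passed an adjusted p under 0.05 with its sign kept, and of 864 with 1 library left out, 36 changed sign. Some that changed sign also passed an edgeR adjusted p under 0.05, with the noradrenergic mean as a term. These were Gal (0.00728) and Adcyap1 (0.0122) for E4 against E2, and Adcyap1 (0.0499) for E4 against vehicle. The largest fold change that turned was 0.93 in size. Depth limits the low members, since Cartpt, Tac1 and Sst had under 70 counts in every library. No paired analysis was possible because the groups share no animal numbers. A fit with C5 and C35 left out, chosen for their markers, gave Gal 0.69 for E4 against vehicle (edgeR adjusted p = 0.0312).

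Sign changes are given as log2 fold changes, and their cause was not tested. With the noradrenergic mean as a term, fitted with C5 and C35 included, E2 against vehicle was 0.036 for Calca and 0.21 for Nts. E4 against vehicle was -0.070 for Npy, -0.20 for Gal, -0.19 for Vip, 0.025 for Penk, -0.31 for Adcyap1, -0.10 for Cartpt and 0.31 for Nts. Tamoxifen against vehicle was -0.15 for Gal, -0.24 for Adcyap1 and 0.23 for Nts, and E4 against E2 was -0.19 for Npy, -0.58 for Gal, -0.41 for Adcyap1 and 0.10 for Nts. With C5 and C35 left out, Npy was -0.018 and Nts 0.41 for E2, Nts 0.34 for E4, and Calca -0.38 and Nts 0.51 for tamoxifen, each against vehicle.

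Within the low-numbered animals, E2 against vehicle was -0.15 for Npy, -0.15 for Vip, -0.11 for Adcyap1 and -1.26 for Cartpt. E4 against vehicle was -0.10 for Cartpt, -0.23 for Tac1 and -0.034 for Calca, tamoxifen against vehicle -0.57 for Calca, and E4 against E2 0.40 for Vip, -0.058 for Penk and 1.17 for Cartpt. Within the high-numbered animals, E2 against vehicle was 0.052 for Tac1, 0.028 for Calca and 0.12 for Nts, and E4 against vehicle 0.22 for Penk, -0.070 for Calca and 0.77 for Nts. Tamoxifen against vehicle was -0.065 for Npy, -0.19 for Gal, 0.048 for Penk, -0.55 for Adcyap1 and 0.37 for Nts, and E4 against E2 -0.24 for Gal, -0.17 for Adcyap1, -0.10 for Calca and 0.64 for Nts. With the number range as a term, Calca was -0.11 for E4 and -0.16 for tamoxifen against vehicle. Without the 3 Pth libraries, Tac1 was 0.26 for E2 against vehicle and Nts 0.043 for E4 against E2.

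With 1 library left out, E2 against vehicle ranged from -0.019 to 0.41 for Npy, -0.046 to 1.32 for Vip, -0.30 to 0.93 for Cartpt, -0.50 to 0.26 for Tac1, -0.52 to 0.098 for Calca and -0.35 to 0.41 for Nts. E4 against vehicle ranged from -0.23 to 0.63 for Tac1, -0.21 to 0.23 for Calca and -0.57 to 0.34 for Nts, and tamoxifen against vehicle from -0.20 to 0.56 for Tac1, -0.44 to 0.26 for Calca and -0.40 to 0.36 for Nts. E4 against E2 ranged from -0.42 to 0.40 for Vip, -0.45 to 0.72 for Cartpt, -0.087 to 0.52 for Calca and -0.42 to 0.12 for Nts.

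Over all 24 libraries, the relation to the noradrenergic mean passed for Vip and Penk (r = 0.44 and -0.60, adjusted permutation p of 0.0249 and 0.00712) but rested on C5 and C35. Without them r was 0.34 and -0.28 (adjusted permutation p of 0.15 and 0.213). Within the low-numbered and the high-numbered animals, r was 0.43 and 0.52 for Vip, and -0.79 (adjusted permutation p = 0.0111) and -0.24 for Penk. With C5 and C35 left out there as well, r was 0.53 and -0.0072 for Vip and -0.38 and -0.097 for Penk, and 0 of these 4 passed. Relative to the noradrenergic mean and with C5 and C35 left out, Npy and Gal in E4 against vehicle were -0.12 and -0.0065, Gal in tamoxifen against vehicle 0.060, and Adcyap1 in E2 against vehicle 0.11 and in tamoxifen against vehicle -0.29 (exact adjusted p = 0.0238). Without the 3 Pth libraries, 4 ratio differences lost their adjusted p under 0.05 in the smaller groups, those of Gal at 0.32 and -0.24, with the smallest exact p that these groups allow and full separation, and those of Adcyap1 at -0.87 for E4 against vehicle and -0.46 for E4 against E2. The -0.87 includes vehicle C5, whose Adcyap1 ratio of -2.86 rests on 5 counts.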
